A study of Homo sapiens with 12 samples.

Results

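The splicing factor genes described here encode serine/arginine-rich (SR) proteins, the kinases that phosphorylate them, heterogeneous nuclear ribonucleoproteins (hnRNPs) and core proteins of the spliceosome. They were chosen by gene symbol, 60 genes in all, and 50 of them were measured by a probe set annotated to that gene alone, among 14232 genes on the arrays. CLK1, CLK2, SRSF2, SRSF5, RBM5, HNRNPA1 and HNRNPK had only probe sets annotated to several genes, and for SRSF8, HNRNPA3 and HNRNPC no probe set was listed, so these 10 members were not analysed here. All 50 measured members had a mean log2 value of at least 6 over the arrays, and none was lost to a filter on low values. RNA came from CCRF-CEM, an established human T-lymphoblastic leukaemia cell line, in 4 groups of 3 biological replicates. One group was untreated, and the other groups were exposed for 3 h to 250 nM AB61, 550 nM tubercidin or 1 nM actinomycin D, each 5 times the IC50. Tubercidin is a cytotoxic analogue of adenosine, actinomycin D blocks transcription by binding DNA, and AB61 is given by its code name alone. The labels describe no vehicle for the untreated cultures, so an effect of a vehicle and of a compound cannot be told apart. The labels call the replicates biological and say no more of how they were grown, and p-values measure the spread between these 12 arrays.

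Splicing removes introns through the spliceosome, which is assembled stepwise from small nuclear ribonucleoproteins (snRNPs). The U1 snRNP recognises the start of an intron, SF1, the U2AF subunits and the U2 snRNP recognise the branch point and the intron end, and the U4/U6.U5 tri-snRNP then joins and is remodelled into the active enzyme. SR proteins bind exons and mostly promote the use of nearby splice sites, hnRNPs often oppose them, and CLK and SRPK kinases control SR proteins through phosphorylation of their arginine/serine repeats. Many SR protein and hnRNP transcripts regulate their own splicing through exons that lead to decay of the RNA. The values are 1 per gene, so the abundance of these transcripts was measured and not the splicing of any RNA. In bulk RNA a lower level in every cell and fewer cells holding the transcript cannot be told apart, and the normalization used by the authors gives arrays similar distributions, so a loss of RNA shared by all genes is not visible. Markers of the line were present, with 13 of 14 T-lymphoblast markers at a mean log2 value of at least 6 (CD3D at 12.38) and DNTT below it at 4.93. Of other lineages, all 6 myeloid and both erythroid markers lay under 6, and 3 of 5 B-cell and 3 of 6 fibroblast or epithelial markers reached it (KRT8 at 9.72). No marker passed the test against untreated cells, at an adjusted p of 0.05 in limma.

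Promoter sequence is shown for 4 members, CLK3, SRSF4 and HNRNPA2B1, whose values lay among the lowest against untreated cells, and SF3B4, whose value was the highest after AB61. Each line gives the 250 bases before the RefSeq start site in GRCh38.p14, 5′ to 3′ on the strand of the gene, with capitals for matches to the motifs listed next. The stretches are chr15:74608122-74608371 (plus strand), chr1:29181901-29182150 (minus strand), chr7:26200747-26200996 (minus strand) and chr1:149927804-149928053 (minus strand).
CLK3: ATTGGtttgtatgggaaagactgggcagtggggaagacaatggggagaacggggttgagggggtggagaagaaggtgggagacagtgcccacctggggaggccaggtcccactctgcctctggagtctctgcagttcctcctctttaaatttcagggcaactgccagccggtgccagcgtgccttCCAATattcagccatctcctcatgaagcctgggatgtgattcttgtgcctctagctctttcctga
SRSF4: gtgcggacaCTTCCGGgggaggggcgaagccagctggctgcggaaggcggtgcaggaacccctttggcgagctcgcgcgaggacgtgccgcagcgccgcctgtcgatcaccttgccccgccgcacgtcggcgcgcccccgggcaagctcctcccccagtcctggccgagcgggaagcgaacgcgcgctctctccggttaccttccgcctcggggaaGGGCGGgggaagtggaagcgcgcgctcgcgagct
HNRNPA2B1: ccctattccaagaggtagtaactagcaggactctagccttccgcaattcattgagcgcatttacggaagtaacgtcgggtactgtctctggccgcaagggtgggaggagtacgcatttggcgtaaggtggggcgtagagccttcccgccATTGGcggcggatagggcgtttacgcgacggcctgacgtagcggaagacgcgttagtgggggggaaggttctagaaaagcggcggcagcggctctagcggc
SF3B4: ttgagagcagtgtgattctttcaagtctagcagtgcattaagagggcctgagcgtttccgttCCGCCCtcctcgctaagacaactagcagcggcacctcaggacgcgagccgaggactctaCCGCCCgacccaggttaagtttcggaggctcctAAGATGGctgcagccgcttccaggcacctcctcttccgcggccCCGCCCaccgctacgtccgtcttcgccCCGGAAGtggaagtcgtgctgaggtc
The motifs searched on both strands were the ETS core CCGGAAG, the CCAAT box, the GC box GGGCGG, the NRF1 motif (GCGCA and GCGC with any base between), the YY1 core AAGATGG, the E-box CACGTG, the cyclic AMP response element TGACGTCA and the TATA box, searched as TATAAA. Capitals of neighbouring matches do not overlap. The upstream stretch of CLK3 held 2 matches to CCAAT, at 250 to 246 and at 65 to 61 bases before the start. That of SRSF4 held 1 ETS and 1 GC box match, that of HNRNPA2B1 held 1 CCAAT match, and that of SF3B4 held 3 GC box, 1 ETS and 1 YY1 match. RefSeq promoters of 300 bases were available for 46 of the 50 measured members, and not for TRA2A, RBM39, SF3B3 and PRPF3. Over the full 300 bases the ETS core was present in 12 of 46 members (26.1%), against 14.5% of 11386 measured genes and 10.7% of all 27305 promoters. NRF1 matches were present in 9 members (19.6%, against 9.05% of measured genes and 6.28% of all promoters), and YY1 matches in 6 (13%, against 6.45% and 6.06%). CCAAT (37%, 36.5% and 35.7%), the GC box (63%, 60.8% and 44.6%), the E-box (13%, 8.99% and 7.43%) and the TATA box (8.7%, 8.6% and 12%) were present in the members, the measured genes and all promoters at those shares. The response element was present in 0 members, 2.73% of measured genes and 1.98% of all promoters. The median log2 difference after AB61 was -0.09 in members with the ETS core and -0.17 in those without, and -0.14 and -0.16 in members with and without CCAAT. With and without the motif it was -0.14 and -0.17 for the GC box, -0.16 and -0.17 for NRF1 and -0.07 and -0.17 for YY1. For the E-box it was -0.20 and -0.15, and for the TATA box -0.11 and -0.16. After actinomycin D the median was -0.13 with and 0.00 without the GC box, and 0.00 with and -0.12 without NRF1. With and without the motif it was -0.11 and -0.13 for ETS, -0.13 and -0.11 for CCAAT and -0.06 and -0.13 for YY1. The E-box gave -0.12 and -0.12 and the TATA box -0.14 and -0.12. After tubercidin these medians ran from -0.09 (with NRF1) to -0.02 (with the TATA box). These matches are descriptions of the letters, with no test.

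No splicing factor gene passed the test after any of the 3 compounds. At an adjusted p of 0.05 in limma, 0 of 50 members were called after AB61 (0.169% of all genes were called), 0 after tubercidin (0.0913%) and 0 after actinomycin D (0.119%). Below 0.05 without adjustment were 12 members lower and 1 higher after AB61 (6.25% and 5.82% of all genes), 2 lower and 0 higher after tubercidin (3.53% and 5.27%), and 5 lower and 0 higher after actinomycin D (4.5% and 4.89%). Groups without overlap are a coarser description. All treated arrays lay below all untreated ones in 9 members after AB61, 2 after tubercidin and 9 after actinomycin D (6.18%, 6.58% and 7.22% of all genes), and above them in 1, 4 and 0 members (6.42%, 7.43% and 7.23%). Most members had a mean log2 value of at least 8. Of the 3669 genes at that level, 396, 208 and 375 lay below without overlap in the same order, and 275, 379 and 343 above. At an unadjusted p below 0.05 in limma, 420, 137 and 241 of them were lower and 246, 275 and 262 higher. The lowest adjusted p of a member was 0.129 after AB61, 0.336 after tubercidin and 0.206 after actinomycin D, in each case for SRSF4. No member differed 2-fold, and differences from untreated cells ran from -0.61 to 0.45 after AB61, from -0.55 to 0.33 after tubercidin and from -0.57 to 0.27 after actinomycin D on the log2 scale. The count of members was not 0 under every setting, since with arrays weighted by their variability 5 members passed after AB61 (beside 508 of all genes) and 3 after actinomycin D (beside 539). Without AB61 replicate 3 the AB61 comparison called 2 members, beside 98 genes in all. Arrays of AB61 and untreated cells with the same replicate number deviated together, and so did those of other groups for some replicate numbers. A replicate block raised the genes called after AB61 from 24 to 193 in a fit of all arrays, gave 11 in a fit of these 2 groups, and called 0 members in either fit.

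**Figure D1:**
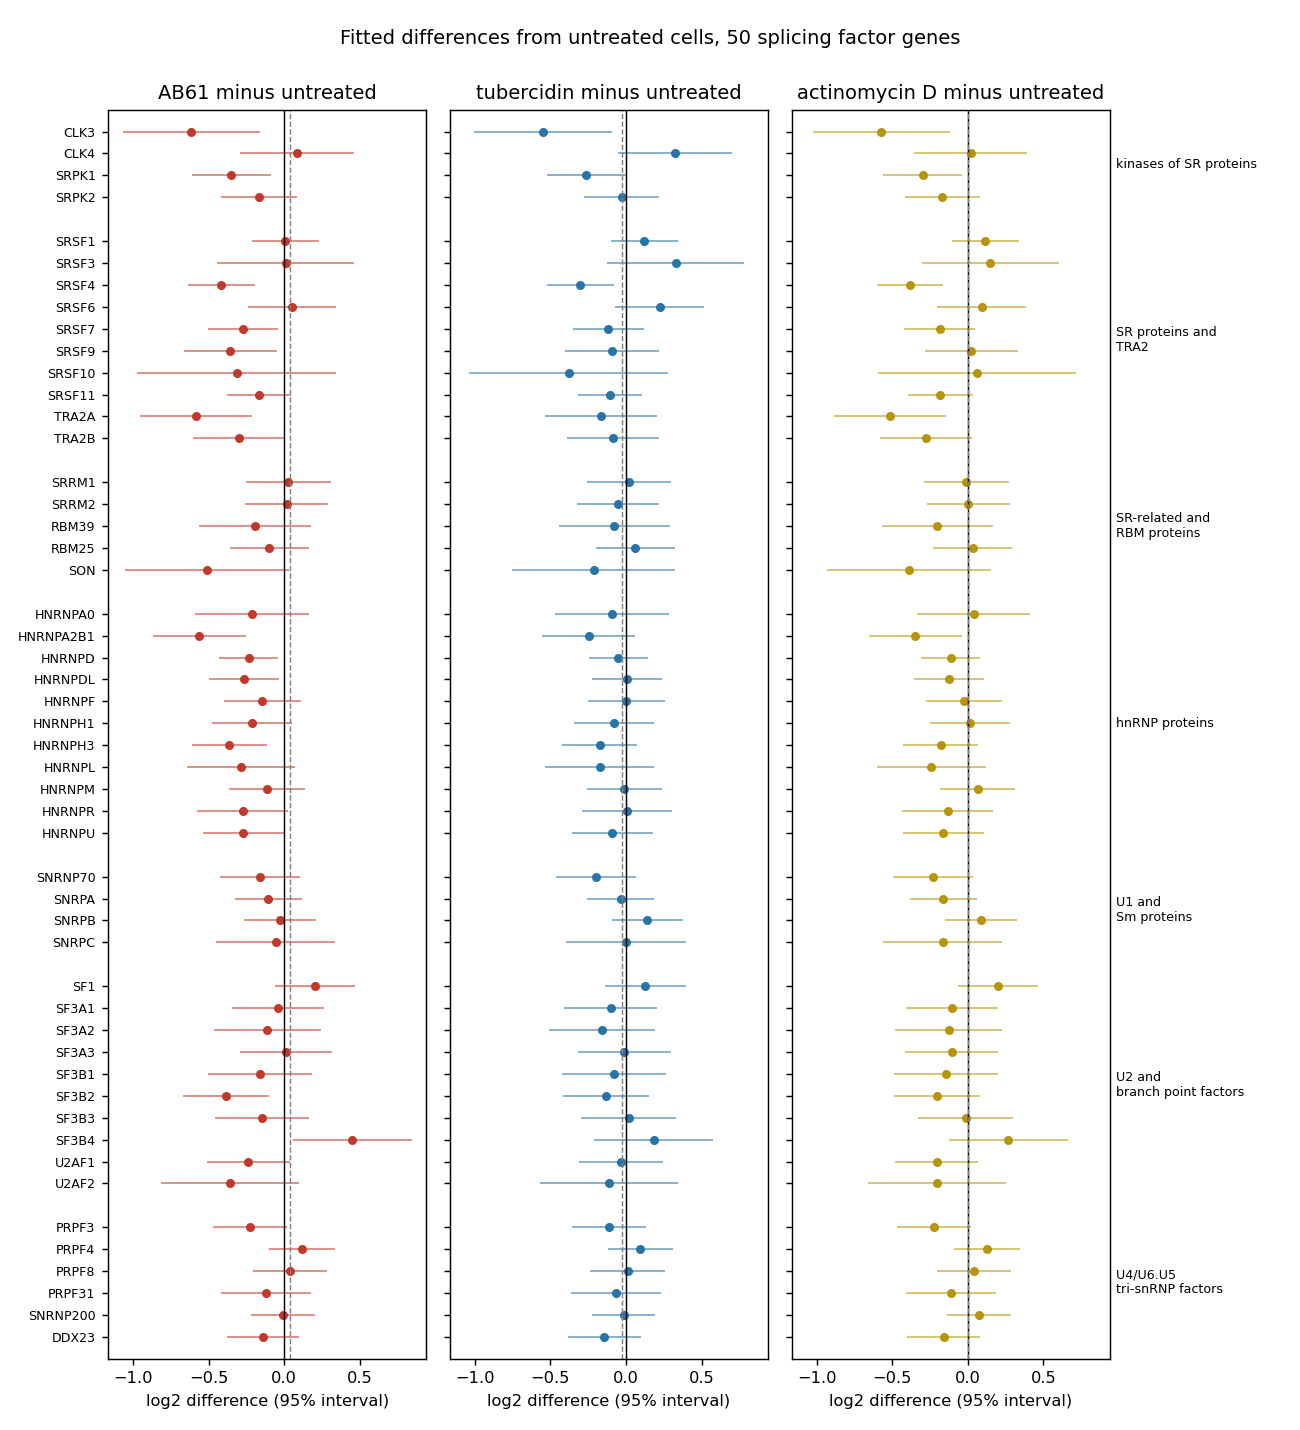
Fitted log2 difference from untreated cells for each of the 50 measured genes, ordered by role, with its 95% interval (horizontal bars) in the fit of all 12 arrays, and with the median of all genes as a dashed line. After AB61 39 points lie below 0, after tubercidin 34 and after actinomycin D 33, and most intervals include 0.

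As a list the members lay below untreated cells by small amounts. The median of their log2 differences was -0.16 after AB61, with 39 of 50 below 0, beside a median of 0.04 over all genes, of which 40.4% lay below 0. After actinomycin D it was -0.13 with 33 of 50 below 0, beside 0.00 and 49.2% over all genes, and after tubercidin -0.07 with 34 of 50 below 0, beside -0.02 and 57%. The 3 comparisons share the untreated arrays. Of the members 48 had a mean log2 value of at least 8, and the 3669 genes at that level had medians of -0.05 after AB61, 0.02 after tubercidin and -0.02 after actinomycin D, with 58.7%, 45.7% and 54.1% below 0. A shift with level therefore moved with the AB61 result, and its part in it was not tested.

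**Figure D2:**
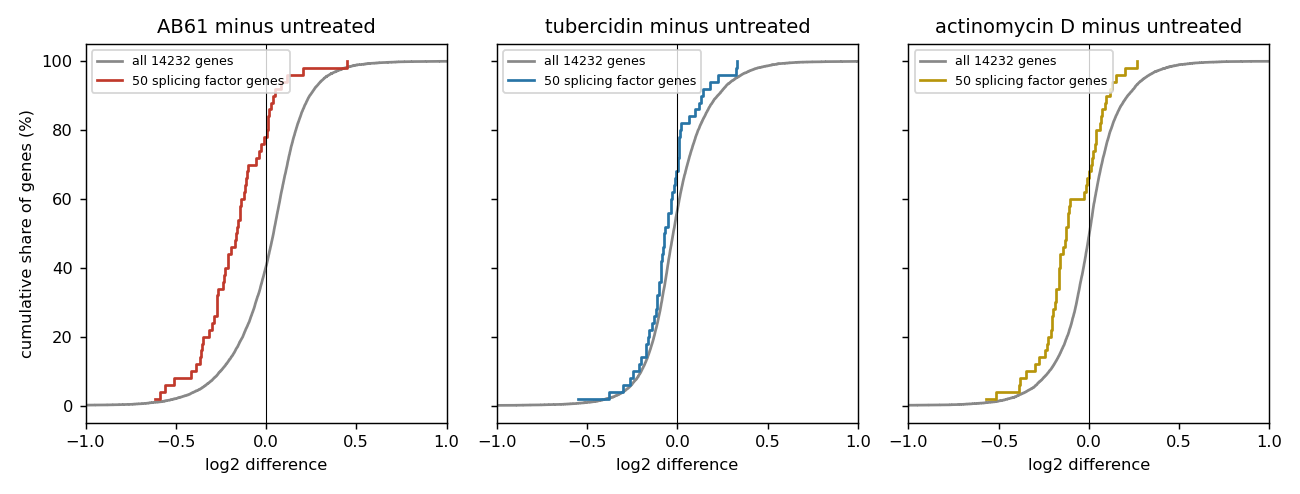
Cumulative share of genes (%) against the log2 difference from untreated cells, for the 50 splicing factor genes (coloured) and all 14232 genes (grey), with the axis shown from -1 to 1. The coloured curve lies to the left of the grey one around the median in each comparison, at -0.16 against 0.04 after AB61, -0.07 against -0.02 after tubercidin and -0.13 against 0.00 after actinomycin D.

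The list median differed between arrays of the same group. Taken against the mean of the untreated arrays, it was 0.06, -0.03 and -0.07 on untreated replicates 1, 2 and 3. On the AB61 arrays it was -0.20, -0.27 and -0.11, all below the untreated arrays. On the actinomycin D arrays it was -0.08, -0.14 and -0.11, again below all untreated arrays, the nearest by a narrow margin, and on the tubercidin arrays it was -0.10, 0.03 and -0.07, which overlapped them. AB61 replicate 2 gave the lowest value of its group for 25 of the 50 members and the highest for 1, and AB61 replicate 3 the highest for 31. The all-gene median went the other way on AB61 replicate 2, at 0.10, and was -0.05 on AB61 replicate 3. Genes with a mean of at least 8 had medians of -0.05, -0.12 and 0.02 on AB61 replicates 1, 2 and 3. Those brighter genes thus ordered the AB61 arrays as the members did, at values nearer to untreated cells. Leaving out 1 array at a time moved the AB61 list median between -0.24 (without AB61 replicate 3) and -0.14 (without AB61 replicate 2). Without untreated replicate 1 the list median was -0.07 after actinomycin D and -0.03 after tubercidin.

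**Figure D3:**
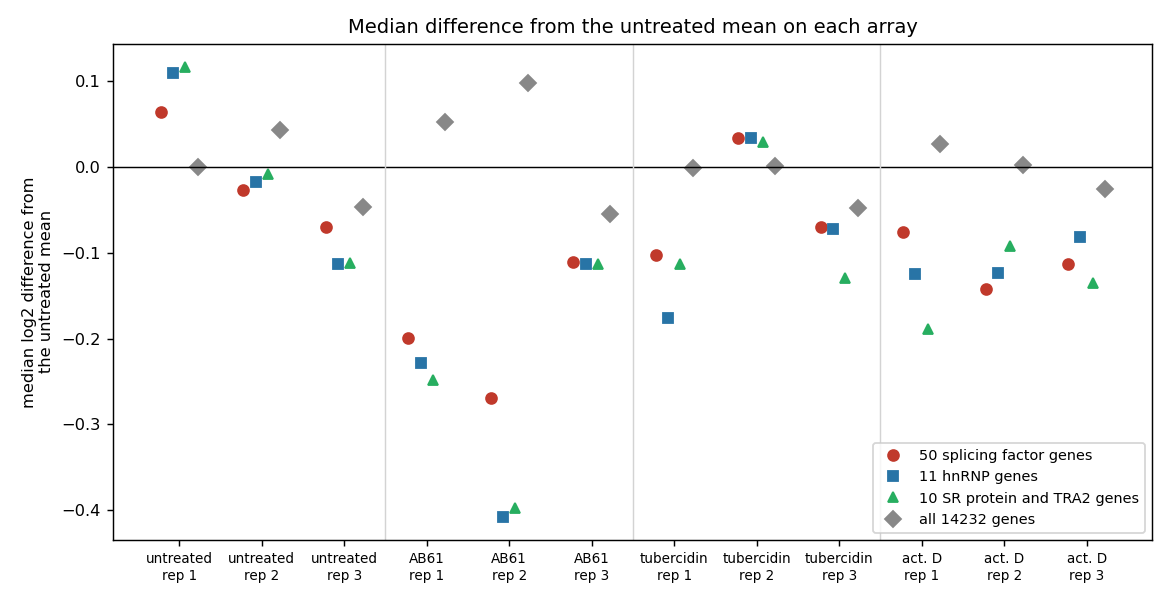
Median log2 difference from the mean of the untreated arrays on each of the 12 arrays, for the 50 splicing factor genes, the 11 hnRNP genes, the 10 SR protein and TRA2 genes and all genes. The 3 AB61 arrays lie at -0.20, -0.27 and -0.11 for the splicing factor genes, and AB61 replicate 2 holds the lowest hnRNP and SR protein medians of all arrays.

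Among the kinases of SR proteins, CLK3 and SRPK1 lay below untreated cells after all 3 compounds, without passing the test. CLK3, a nuclear kinase of the CDC-like family that phosphorylates SR proteins, had log2 values of 8.67, 8.97 and 9.61 on the untreated arrays, 8.74, 8.40 and 8.27 after AB61, 8.43, 8.77 and 8.40 after tubercidin, and 8.73, 8.45 and 8.35 after actinomycin D. The untreated arrays spread widely and their lowest, replicate 1, lay among the treated ones, so the groups overlapped. The log2 differences were -0.61 (SE 0.21, adjusted p = 0.260) after AB61, -0.55 (SE 0.21, adjusted p = 0.421) after tubercidin and -0.57 (SE 0.21, adjusted p = 0.381) after actinomycin D. Without untreated replicate 3 they were -0.35, -0.29 and -0.31. SRPK1, a kinase that primes SR proteins for import into the nucleus, stood at 9.87, 9.61 and 9.61 untreated, 9.37, 9.16 and 9.51 after AB61, 9.56, 9.41 and 9.34 after tubercidin, and 9.51, 9.41 and 9.27 after actinomycin D. All 9 treated arrays lay below all untreated ones. The log2 differences of SRPK1 were -0.35, -0.26 and -0.30 (SE 0.12 each, adjusted p = 0.267, 0.571 and 0.447) in the same order. SRPK2, its paralogue, stood at -0.17, -0.03 and -0.17. CLK4, another CDC-like kinase, had differences of 0.09, 0.32 and 0.02 (SE 0.17, adjusted p = 0.872, 0.684 and 0.999). Its tubercidin arrays, at 6.37, 6.45 and 6.57, lay just above the untreated ones at 6.11, 5.98 and 6.33, while those of AB61 (5.90, 6.15 and 6.61) and actinomycin D (5.89, 6.20 and 6.38) overlapped them.

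In the SR protein and TRA2 class, SRSF4 lay below untreated cells on every treated array without passing the test. SRSF4, a large SR protein with long arginine/serine repeats, had log2 values of 9.59, 9.64 and 9.44 untreated, 9.15, 9.02 and 9.25 after AB61, 9.18, 9.33 and 9.25 after tubercidin, and 9.20, 9.05 and 9.27 after actinomycin D. No treated array reached the lowest untreated one. The log2 differences were -0.42 (1.33-fold lower, SE 0.10, adjusted p = 0.129), -0.30 (1.23-fold, adjusted p = 0.336) and -0.38 (1.30-fold, adjusted p = 0.206), and each of their 95% intervals lay below 0 before adjustment, with -0.64 to -0.19 for AB61. Weighted by array variability, the SRSF4 difference passed after AB61 (-0.44, adjusted p = 0.0262) and actinomycin D (-0.47, adjusted p = 0.0120).

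TRA2A is a sequence-specific splicing activator of the transformer family. It stood at 9.51, 9.48 and 9.07 untreated, at 8.62, 8.52 and 9.17 after AB61, at 9.12, 9.35 and 9.09 after tubercidin and at 8.70, 8.83 and 8.98 after actinomycin D. AB61 replicate 3 lay within the untreated range, while all actinomycin D arrays lay below it. The log2 differences were -0.59 (SE 0.17, adjusted p = 0.196), -0.17 (adjusted p = 0.934) and -0.51 (adjusted p = 0.325). Without AB61 replicate 3 the AB61 difference was -0.79 and passed (adjusted p = 0.0457). The gene has a second probe set, on which the differences were -0.46, -0.52 and -0.43, so the probe sets disagreed for tubercidin. Its paralogue TRA2B stood at -0.30, -0.08 and -0.27.

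Other SR protein genes lay on both sides of untreated cells by values that did not pass. SRSF3, a small SR protein that also takes part in RNA export, had log2 values of 11.13, 10.85 and 11.11 untreated, 11.31, 11.28 and 11.49 after tubercidin, 10.86, 11.32 and 11.37 after actinomycin D and 10.81, 10.70 and 11.62 after AB61. All tubercidin arrays were above the untreated ones (difference 0.33, SE 0.21, adjusted p = 0.785), and the AB61 arrays spread on both sides of the untreated mean (difference 0.01). SRSF6 also had its tubercidin arrays, at 9.50, 9.48 and 9.63, above the untreated ones at 9.30, 9.22 and 9.41 (difference 0.22, SE 0.14, adjusted p = 0.761). Its AB61 arrays (9.15, 9.41 and 9.53) and actinomycin D arrays (9.12, 9.47 and 9.62) overlapped the untreated ones. SRSF9 had AB61 values of 10.22, 9.94 and 10.10 against 10.67, 10.18 and 10.48 untreated (-0.36, adjusted p = 0.341), beside differences of -0.09 after tubercidin and 0.02 after actinomycin D. SRSF10, which represses splicing in its dephosphorylated form, stood at 7.11, 6.46 and 7.52 untreated, 6.28, 6.67 and 7.19 after AB61, 6.52, 6.23 and 7.20 after tubercidin and 6.89, 6.94 and 7.43 after actinomycin D. The groups overlapped, and its differences of -0.32, -0.38 and 0.06 each had an SE of 0.30. Without untreated replicate 3 the SRSF10 differences were -0.07, -0.13 and 0.31, and without untreated replicate 2 they were -0.60, -0.66 and -0.22. SRSF1, the founding member of the family, stood at 0.01, 0.12 and 0.12, SRSF7 at -0.27, -0.12 and -0.19, and SRSF11 at -0.17, -0.10 and -0.18. Of the 10 measured genes of the class, 7 were below 0 after AB61, 7 after tubercidin and 5 after actinomycin D, with medians of -0.29, -0.10 and -0.08.

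**Figure D4:**
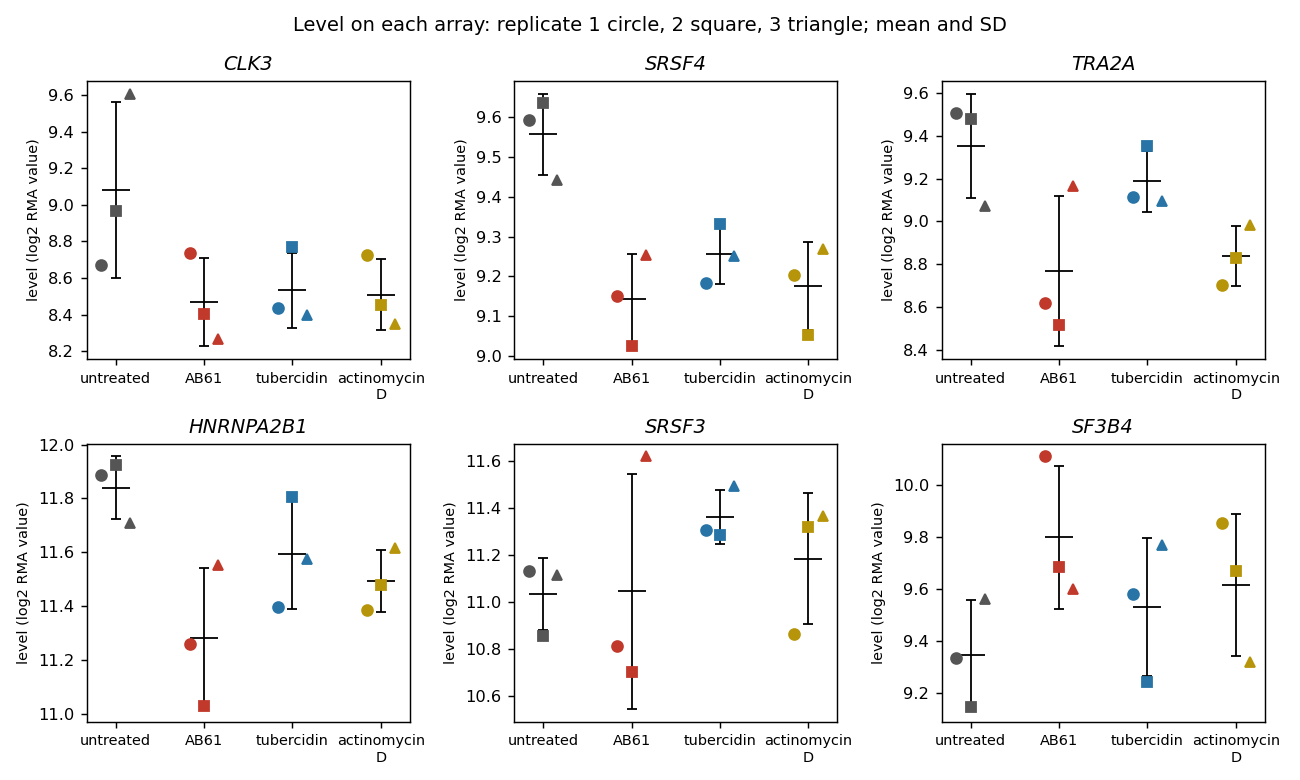
Log2 RMA value of 6 members on each array (points, with a symbol for each replicate number), with the group mean and SD (horizontal and vertical bars, n = 3). SRSF4 is lower on all 9 treated arrays than on any untreated array, the untreated CLK3 values spread from 8.67 to 9.61, and the AB61 values of SRSF3 spread from 10.70 to 11.62.

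The SR-related and RNA-binding motif proteins showed small differences with wide intervals. SON, a scaffold of nuclear speckles where splicing factors are stored, had log2 values of 9.54, 9.78 and 8.84 untreated, 8.70, 8.72 and 9.21 after AB61, 8.92, 9.68 and 8.92 after tubercidin and 8.92, 8.88 and 9.19 after actinomycin D. Untreated replicate 3 was lower than every other untreated array and lay among the treated ones. The log2 differences of SON were -0.51, -0.21 and -0.39 (SE 0.25 each, adjusted p = 0.452, 0.944 and 0.765), and without untreated replicate 3 they were -0.78, -0.49 and -0.66, against -0.31, -0.02 and -0.19 without untreated replicate 2. RBM39, a partner of the U2AF machinery, stood at -0.19, -0.08 and -0.20. The splicing coactivators SRRM1 and SRRM2 and the regulator RBM25 lay between -0.10 and 0.06 in all 3 comparisons.

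All 11 measured hnRNP members had a fitted value below 0 after AB61, with a median of -0.27 and a range from -0.56 to -0.11. Below 0 after AB61 lay 40.4% of all genes and 58.7% of those with a mean of at least 8. After tubercidin 8 of 11 were below 0 (median -0.08) and after actinomycin D 8 of 11 (median -0.12). On single arrays the class median ran from -0.41 to -0.11 after AB61, from -0.18 to 0.03 after tubercidin, from -0.12 to -0.08 after actinomycin D and from -0.11 to 0.11 untreated. AB61 replicate 3, at -0.11, was level with the lowest untreated array. Several hnRNP genes have processed pseudogenes whose RNA the probes may not separate, so their levels are uncertain to that extent. Genes with all AB61 arrays below all untreated arrays were 4 of 11 in the class, beside 6.18% of all genes. After tubercidin such genes were 0 of 11 (6.58% of all genes) and after actinomycin D 3 of 11 (7.22%). Among the 3669 genes with a mean of at least 8 there were 396 after AB61, 208 after tubercidin and 375 after actinomycin D.

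HNRNPA2B1, an RNA-binding protein of splicing and RNA transport, had log2 values of 11.89, 11.92 and 11.71 untreated and 11.26, 11.03 and 11.55 after AB61. After tubercidin they were 11.40, 11.81 and 11.58 and after actinomycin D 11.39, 11.48 and 11.62. The AB61 and actinomycin D arrays lay below all untreated arrays, and 1 tubercidin array lay within their range. The log2 differences were -0.56 (1.48-fold lower, SE 0.14, adjusted p = 0.138), -0.25 (adjusted p = 0.729) and -0.35 (adjusted p = 0.453). Without AB61 replicate 3 the AB61 difference was -0.70 and passed (adjusted p = 0.0470).

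HNRNPH3, which binds guanine-rich RNA, stood at 9.65, 9.77 and 9.77 untreated and at 9.30, 9.32 and 9.47 after AB61 (-0.36, adjusted p = 0.227). HNRNPD, which also binds AU-rich elements and promotes decay of RNAs that carry them, stood at 10.93, 10.97 and 11.01 untreated, at 10.70, 10.67 and 10.83 after AB61 (-0.23, adjusted p = 0.319) and at 10.89, 10.92 and 10.94 after tubercidin (-0.05, adjusted p = 0.969). Its paralogue HNRNPDL stood at 9.72, 9.46 and 9.45 untreated, at 9.30, 9.14 and 9.40 after AB61 (-0.27, adjusted p = 0.340) and at 9.55, 9.63 and 9.47 after tubercidin (0.01, adjusted p = 0.996). In these 3 genes the AB61 arrays did not overlap the untreated ones. After actinomycin D the differences were -0.18 for HNRNPH3, -0.11 for HNRNPD and -0.12 for HNRNPDL. The HNRNPH3 arrays lay below all untreated ones after actinomycin D too, and its tubercidin difference was -0.17. HNRNPU, a chromatin-associated scaffold protein, had AB61 values of 9.05, 8.93 and 9.45 that overlapped the untreated 9.47, 9.40 and 9.38 (-0.27, adjusted p = 0.409). Its actinomycin D values of 9.19, 9.25 and 9.32 lay below all untreated ones (-0.16), and its tubercidin difference was -0.09. HNRNPA0, HNRNPF, HNRNPH1, HNRNPL, HNRNPM and HNRNPR stood between -0.29 and -0.11 after AB61, between -0.17 and 0.01 after tubercidin and between -0.24 and 0.07 after actinomycin D.

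The U1 and Sm protein genes had small differences, with 4 of 4 fitted below 0 after AB61 (median -0.08). SNRNP70, the U1 protein that SR proteins contact, stood at 9.35, 9.36 and 9.13 untreated, 9.27, 9.13 and 8.96 after AB61, 9.05, 9.17 and 9.01 after tubercidin and 9.26, 8.89 and 8.98 after actinomycin D. The groups overlapped, with log2 differences of -0.16, -0.20 and -0.23 (SE 0.12 each, adjusted p = 0.654, 0.762 and 0.637). SNRPA and SNRPC, the other U1-specific proteins, and SNRPB, a component of the Sm ring, lay between -0.17 and 0.14.

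Among U2 and branch point factors the highest difference of all members after AB61 belonged to SF3B4, a subunit of the SF3b complex that holds the U2 snRNP at the branch point. Its log2 values were 9.34, 9.15 and 9.56 untreated, 10.11, 9.68 and 9.60 after AB61, 9.58, 9.25 and 9.77 after tubercidin and 9.85, 9.67 and 9.32 after actinomycin D. All AB61 arrays lay above the untreated ones, the nearest narrowly, and the other groups overlapped. The log2 differences were 0.45 (1.36-fold higher, SE 0.18, adjusted p = 0.347), 0.18 (adjusted p = 0.934) and 0.27 (adjusted p = 0.795), and with weighted arrays the AB61 difference was 0.67 and passed (adjusted p = 0.0438). Leaving out 1 array lowered the SF3B4 difference to 0.29 after AB61 (without AB61 replicate 1), 0.065 after tubercidin (without tubercidin replicate 3) and 0.15 after actinomycin D (without actinomycin D replicate 1). SF3B2 of the same complex lay the other way after AB61, at 8.69, 8.82 and 8.84 against 9.13, 9.26 and 9.12 untreated (-0.39, SE 0.13, adjusted p = 0.258), with no overlap. The actinomycin D arrays of SF3B2 also lay below all untreated ones (-0.21), and its tubercidin arrays overlapped them (-0.13). SF1, which binds the branch point before the U2 snRNP, had log2 values of 10.39, 10.31 and 10.28 untreated, 10.68, 10.61 and 10.30 after AB61, 10.40, 10.45 and 10.51 after tubercidin and 10.74, 10.47 and 10.36 after actinomycin D. Its tubercidin arrays alone lay above all untreated ones, and its log2 differences were 0.20, 0.13 and 0.20 (SE 0.12 each, adjusted p = 0.549, 0.929 and 0.746). The U2AF subunits, which read the polypyrimidine tract and the intron end, stood at -0.24, -0.03 and -0.21 (U2AF1, which has a near-identical copy that the probes may not separate) and at -0.36, -0.11 and -0.21 (U2AF2). SF3A1, SF3A2, SF3A3, SF3B1 and SF3B3 lay between -0.16 and 0.02 in all 3 comparisons.

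Tri-snRNP factors lay close to untreated cells. PRPF8, the scaffold around the active site, stood at 0.04, 0.01 and 0.04, and SNRNP200, the helicase that unwinds the U4 and U6 RNAs, at -0.01, -0.02 and 0.07. PRPF3, a U4/U6 protein, stood at 10.01, 10.21 and 9.87 untreated and at 9.78, 9.76 and 9.87 after actinomycin D (-0.22, SE 0.11, adjusted p = 0.600), where the highest treated array came to just under the lowest untreated one. Its AB61 arrays (9.81, 9.68 and 9.92) and tubercidin arrays (9.82, 10.06 and 9.86) overlapped the untreated ones, with differences of -0.23 and -0.11. PRPF4, another U4/U6 protein, had values of 9.07, 9.16 and 9.05 untreated, 9.04, 9.23 and 9.35 after AB61, 9.14, 9.19 and 9.24 after tubercidin and 9.14, 9.21 and 9.31 after actinomycin D. All groups overlapped, and its differences were 0.12, 0.10 and 0.13 (SE 0.10 each, adjusted p = 0.697, 0.934 and 0.868), and the helicase DDX23 and PRPF31 between -0.16 and -0.07.

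Other spliceosome proteins, a list of 88 genes outside the members of which 70 were measured, had medians of -0.14 after AB61 (60 of 70 below 0), -0.03 after tubercidin (44 of 70) and -0.11 after actinomycin D (53 of 70), and 0 of them passed in any comparison. SNRNP48, a protein of the minor spliceosome, stood at 8.95, 8.96 and 8.86 untreated and 8.15, 7.96 and 8.77 after AB61 (-0.63, SE 0.17, adjusted p = 0.158), with no overlap. SNRNP40, a U5 protein, stood at -0.59 after AB61 (adjusted p = 0.348). PLRG1, of the complex that accompanies the active spliceosome, had fitted values above untreated cells after every compound, at 0.57, 0.58 and 0.54 (SE 0.24 each, adjusted p = 0.360, 0.478 and 0.496). SNRPN, an Sm protein gene expressed mainly in neurons, stood at 6.94, 6.67 and 6.76 after tubercidin against 6.08, 4.90 and 6.24 untreated (1.05, SE 0.29, adjusted p = 0.209). After actinomycin D it stood at 6.23, 6.50 and 7.02 (0.85, adjusted p = 0.334) and after AB61 at 6.41, 6.26 and 6.14 (0.53, SE 0.29), and untreated replicate 2 was lower than every other array.

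The compounds were also compared with each other, in 3 pairs given at the same multiple of the IC50 and for the same time but at different molar doses. In limma, with p adjusted over all genes of a pair, 0 genes passed in any of them (0% of all genes). At an unadjusted p below 0.05 there were 273 genes lower and 448 higher after AB61 than after tubercidin, 71 and 189 for AB61 against actinomycin D, and 103 and 81 for tubercidin against actinomycin D. For AB61 against tubercidin, 3 members were lower and 0 higher at that level (1.92% and 3.15% of all genes), namely HNRNPDL, TRA2A and HNRNPA2B1. For AB61 against actinomycin D 1 was lower and 0 higher (0.499% and 1.33%), and for tubercidin against actinomycin D 0 and 0 (0.724% and 0.569%). Arrays did not overlap in 2 members lower and 0 higher in the first pair (2.28% and 3.75% of all genes), 6 and 0 in the second (2.03% and 2.38%), and 1 and 5 in the third (4.36% and 2.19%). Among the 3669 genes with a mean of at least 8 these counts were 151 and 30, 138 and 33, and 20 and 94. At an unadjusted p below 0.05 they were 103 and 13, 24 and 2, and 2 and 13. HNRNPDL was lower on every AB61 array than on any tubercidin array (log2 difference -0.27, 95% interval -0.50 to -0.04, adjusted p = 0.793). TRA2A stood at -0.42 (-0.79 to -0.05) and HNRNPA2B1 at -0.31 (-0.62 to -0.004, with the same adjusted p). On the second TRA2A probe set the differences from untreated cells were -0.46 after AB61, -0.52 after tubercidin and -0.43 after actinomycin D. By that probe set TRA2A was not lower after AB61 than after tubercidin, and not higher after tubercidin than after actinomycin D. All 11 hnRNP members were fitted lower after AB61 than after tubercidin (median -0.18), beside 41.1% of all genes and 70.6% of the genes with a mean of at least 8. For AB61 against actinomycin D they were also 11 of 11 below 0 (median -0.14), beside 43.3% of all genes and 65.3% of those with a mean of at least 8. The members' medians were -0.11, -0.04 and 0.06 in the 3 pairs, and -0.046, -0.010 and 0.014 after repeated quantile normalization. SRSF9 was the member with the lowest p in AB61 against actinomycin D (-0.38, 95% interval -0.69 to -0.07, adjusted p = 1.00), and TRA2A in tubercidin against actinomycin D (0.35, 95% interval -0.02 to 0.72, adjusted p = 1.00). A missed threshold does not show that the compounds act alike.

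**Figure D5:**
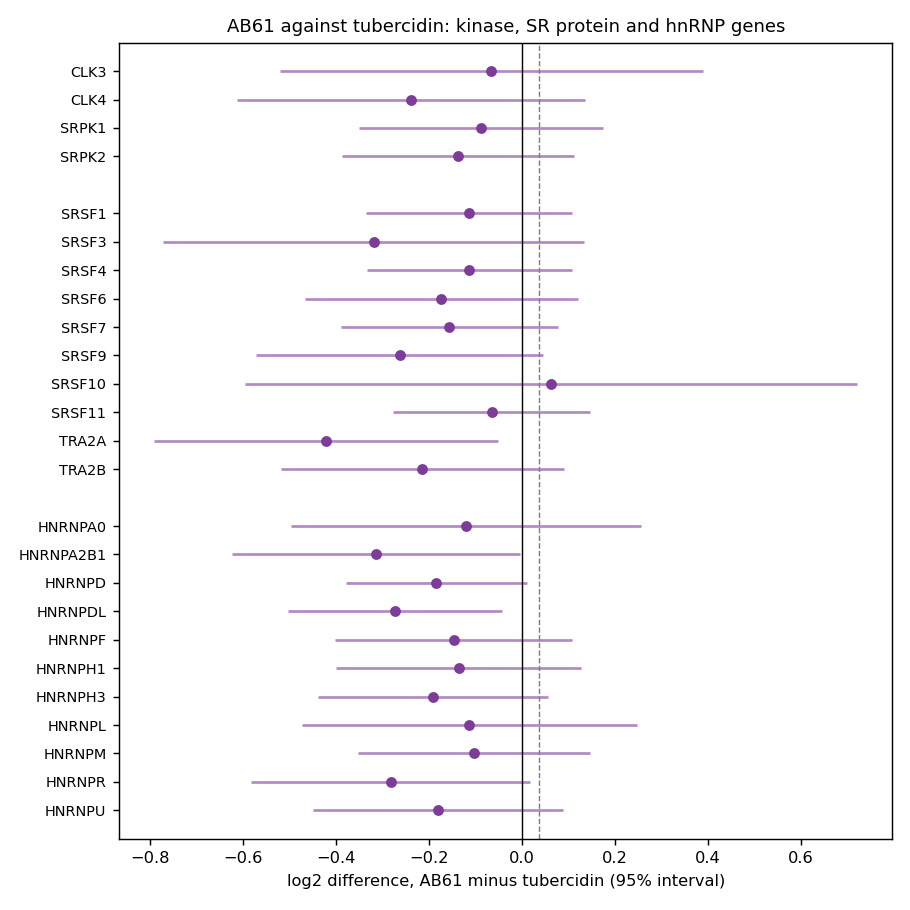
Log2 difference between AB61 and tubercidin for the kinase, SR protein and hnRNP genes with 95% intervals, and the median of all genes as a dashed line. All 11 hnRNP points lie below 0, between -0.31 and -0.10, and most intervals include 0.

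With the 3 treatments averaged against untreated cells, SRSF4 came nearest to the threshold. In that contrast 149 of 14232 genes passed (1.05%) and 0 members did. SRSF4 stood at -0.37 (SE 0.08, adjusted p = 0.0569), CLK3 at -0.58 (SE 0.17, adjusted p = 0.130), HNRNPA2B1 at -0.39 (SE 0.12, adjusted p = 0.141) and SRPK1 at -0.30 (SE 0.10, adjusted p = 0.169). At an unadjusted p below 0.05 there were 8 members lower and 0 higher, beside 6.2% and 6.84% of all genes. Of the 3669 genes with a mean of at least 8, 346 were lower and 373 higher at that p. SRSF4 and SRPK1 were the 2 members with all treated arrays below all untreated ones (1.9% of all genes), and 0 members lay above them (2.63%). The adjusted p of SRSF4 was 0.0421 after repeated quantile normalization, 0.0458 with dim genes left out, 0.0127 with weighted arrays, 0.0359 with the replicate block and 0.0371 without AB61 replicate 3, so its side of the threshold depended on the setting. TRA2A passed too without AB61 replicate 3 (-0.49, adjusted p = 0.0489).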

How the data were processed

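The submitters' processing notes name RMA, oligo and limma as the authors' tools, without versions. The array files the authors deposited give log2 values for 22011 probe sets on 12 arrays, whose correlations with each other ran from 0.977 to 0.993, with no array a copy of another. The deposited comparison tables carry the difference of group means on the log2 scale and an unadjusted p-value, and were set beside the fit. Platform annotation gave 1 gene symbol for 14432 probe sets, several for 2408, and 5171 were not listed. One probe set, the brightest, stood for each of 14232 genes, and TRA2A was the only member with more than 1. Levels of different genes were not compared.

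Differences were fitted with limma 3.58.1 (R 4.3.3), as group means of all 12 arrays with eBayes moderation (8 residual and 4.91 prior degrees of freedom). SEs, intervals and p-values of single genes are from this fit unless another setting is named, and it takes no account of replicate numbers. Tests were two-sided, and p was adjusted by Benjamini-Hochberg over all genes in each of 7 contrasts, with 0.05 as threshold. The fit was run on simulated data with known changes, and the check covered only the median estimate of those changes. The simulated arrays were independent, so calls under deviations shared by replicate number were not tested. Members and lists were chosen with earlier results of these data known. By rule, array values are given for members past the threshold, the 5 lowest and 3 highest members per treatment, the largest of each role class and the CLK genes, and from other lists the 2 largest differences per contrast are named. SRSF9, HNRNPH3, HNRNPD, HNRNPDL, HNRNPU and SF3B2 were added after their values were seen. A difference from untreated cells had a median SE of 0.13 and a median 95% half-width of 0.28, and the number of arrays limits this precision. Same-numbered AB61 and untreated arrays had correlated deviations (0.158, 0.355 and 0.268), so their numbers were read as a pairing in an alternative fit, the replicate block. Single-gene SEs, intervals and p-values leave this pairing out unless the block is named. Each other pair of groups had a value under 0.1 for some replicate number, and higher ones for others. AB61 and actinomycin D arrays reached 0.596 (replicate 1), untreated and tubercidin arrays 0.421 (replicate 3), and tubercidin and actinomycin D arrays 0.406 (replicate 3). Shared deviations were therefore not confined to AB61 and untreated arrays. Alternatives changed the scaling, the filter, the variance model, the weights, the arrays fitted, the block or the probe set, or left out an array. Figures used Python 3.11.15 and matplotlib 3.10.9.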

Additional observations from a re-analysis of the deposited data

How the results depend on the processing

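The 0 members called in the fit of all arrays depended on a few settings. Array weights, which ran from 0.228 for AB61 replicate 3 to 4.66 for actinomycin D replicate 2, called 5 members after AB61 (SRSF4, TRA2A, HNRNPA2B1, HNRNPU and SF3B4), 3 after actinomycin D (SRSF4, TRA2A and HNRNPA2B1) and 4 in the mean of the treatments (SRPK1, SRSF4, TRA2A and HNRNPA2B1). In that mean, repeated quantile normalization, the filter on genes with a mean under 6 and the replicate block called 1 member each, SRSF4. With 1 array left out, members called ran from 0 to 2 after AB61 and from 0 to 2 in the mean, in both cases 2 without AB61 replicate 3, and stayed at 0 in the other contrasts. The cause of these changes was not tested.

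Genes called after AB61, 24 in the fit of all arrays, were 3 with each array centred on its median, 60 with dim genes left out, 14 with an intensity trend, 508 with array weights and 0 in a fit of the 2 groups alone. After tubercidin 13 became 6 with centring, 21 without dim genes, 46 with weights and 1 in the 2 groups. After actinomycin D 17 became 2 with centring, 7 with quantile normalization, 539 with weights and 1 in the 2 groups. For the mean of the treatments 149 became 75 with centring and 568 with weights, and AB61 against actinomycin D went from 0 to 8 with weights. With 1 array left out, genes called ran from 0 (without untreated replicate 2) to 98 (without AB61 replicate 3) after AB61, from 2 to 33 after tubercidin, from 1 to 25 after actinomycin D and from 6 to 263 in the mean.

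With the replicate block, genes called were 193 after AB61 (11 in the fit of AB61 and untreated arrays alone, an alternative chosen after seeing the data), 116 after tubercidin, 130 after actinomycin D, 517 in the mean and 1 for tubercidin against actinomycin D. Of all 12 arrays 11 correlated best with arrays of their own number. The block changed no member's call other than SRSF4 in the mean.

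The members' median kept its sign under every alternative. With 1 array left out it ran from -0.24 to -0.14 after AB61, from -0.10 to -0.03 after tubercidin, from -0.14 to -0.070 after actinomycin D, from -0.12 to -0.011 for AB61 against actinomycin D, from -0.17 to -0.06 for AB61 against tubercidin and from 0.03 to 0.08 for tubercidin against actinomycin D. Quantile normalization moved it to -0.11 after AB61 and to -0.046, -0.010 and 0.014 for AB61 against tubercidin, AB61 against actinomycin D and tubercidin against actinomycin D.

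Among members with array values by the rule, 981 of the values kept direction and side, 9 passed the threshold and 15 small ones changed sign. Members added after their values were seen were not counted. Of those, HNRNPU passed in limma after AB61 with array weights (-0.37, adjusted p = 0.0427). With weights, CLK4 stood at -0.13, SRSF3 at -0.20 and SRSF6 at -0.086 after AB61, and SRSF10 at -0.012 after actinomycin D, and with centring SRSF3 stood at -0.016 after AB61. With 1 array left out, CLK4 ran from -0.11 to 0.25, SRSF3 from -0.28 to 0.18 and SRSF6 from -0.034 to 0.16 after AB61, each lowest without AB61 replicate 3. After actinomycin D, CLK4 ran from -0.092 to 0.15 and SRSF6 from -0.014 to 0.23, both lowest without actinomycin D replicate 3, and SRSF10 from -0.22 (without untreated replicate 2) to 0.31 (without untreated replicate 3).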

Other observations

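Splicing regulators outside the SR, hnRNP and spliceosome members, 26 measured of 29 listed, had medians of -0.06 after AB61, 0.00 after tubercidin and 0.02 after actinomycin D, and 0 of them passed the test. RBFOX2, which binds a short intronic element and controls tissue-specific exons, stood at 7.19, 7.09 and 7.19 on the untreated arrays and at 7.02, 6.79 and 6.76 after AB61, 7.06, 6.93 and 6.87 after tubercidin and 6.99, 6.84 and 6.82 after actinomycin D. All 9 treated arrays lay below all untreated ones (log2 differences -0.31, -0.21 and -0.28, SE 0.10 each, adjusted p = 0.253, 0.627 and 0.385). That held for 2 of the 26 regulators, and 1 lay above all untreated arrays, beside 1.9% and 2.63% of all genes. HNRNPLL, a regulator of CD45 splicing in lymphocytes, stood at -0.38 after AB61 (adjusted p = 0.273) and -0.29 after actinomycin D (adjusted p = 0.533). HNRNPH2 stood at -0.44 after AB61 (adjusted p = 0.397), HNRNPAB at -0.35 after tubercidin (adjusted p = 0.632) and TIA1, a regulator of weak splice sites and of stress granules, at 0.33 after tubercidin (adjusted p = 0.773).

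In the authors' deposited table, which gives unadjusted p-values, 12 of the 50 members were lower and 1 higher at a p below 0.05 after AB61 (5.64% and 4.97% of all genes), 2 and 0 after tubercidin (3.2% and 4.57%), and 4 and 0 after actinomycin D (4% and 4.29%). Its p for SRSF4 was 0.00115 after AB61, 0.0100 after tubercidin and 0.00214 after actinomycin D.

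Promoters of the 46 members with a RefSeq entry had a median of 30 CpG dinucleotides in 300 bases, against 23 in measured genes and 14 in all promoters, with a median GC content of 63.7%, 63.3% and 58.3%. These are descriptions, with no test.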
